A study of Mus musculus with 21 samples.

Results

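The transcripts described here are 33 genes whose products mark leukocytes and, for most of them, macrophages, out of 45706 genes measured in tumour endothelial preparations. The 33 gene symbols were given as a list, drawn up with the difference between knockout and wild-type samples in these data already known, and each matched 1 row of the expression table. RNA was sequenced from CD31+ cells of E0771.lmb mammary tumours grown in adult mice and taken 14 to 16 days after tumour cell injection. Knockout animals (KO, Shb iECKO) carried Shb flox/flox and Cdh5-CreERt2, a Cre recombinase driven by an endothelial promoter and active after tamoxifen. Shb is an adaptor protein of tyrosine kinase receptors. The comparison animals are labelled wild type (WT), and the protocol describes tamoxifen injection ahead of tumour growth without separating the genotypes. There were 11 WT and 10 KO libraries in 4 experiments, from 9 WT and 8 KO tumours, and the labels do not say which libraries share a tumour. The protocol shared by all samples states that CD45+ cells were isolated with magnetic beads before the CD31 sort, without saying which fraction went on, and it also names a Vav1-cre line (Shb ICKO) that no sample is labelled with.

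Leukocytes carry CD45, encoded by Ptprc, on their surface. Macrophages are tissue phagocytes that depend on the CSF1 receptor and on the transcription factor PU.1, encoded by Spi1, and they are abundant in mouse mammary tumours. They take up debris and antibody-coated particles through Fc and scavenger receptors, degrade them in lysosomes, and secrete C1q, the recognition component of the classical complement pathway. CD31, encoded by Pecam1, is the standard sort marker of endothelium and is also found on platelets and on some leukocytes.

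PU.1 binds purine-rich DNA with the core GAGGAA, and many of its known targets are myeloid genes. In RefSeq promoter windows (GRCm38.p6, 250 bases before to 50 bases after a start site), 24 of the 33 genes had at least 1 window, 33 windows in all. GAGGAA, read on either strand, was present in 19 of these 33 windows (57.6%), belonging to 17 genes, against 28.3% of all 32851 windows. The longer form GAGGAAGT, which contains the first, was present in 3 of the 33 windows (9.09%) against 3.2% of all windows. These 3 windows, of Ctss, Cd53 and C1qc, are printed because they hold the longer form. Further matches to GAGGAA, in the windows of Ctss and Cd53, are left in small letters. The match to the longer form is in capitals, and in all 3 it reads as the reverse complement ACTTCCTC on the strand shown. It begins 2 bases before the start site in Ctss (chr3:95526536-95526835, plus strand), 6 bases after it in Cd53 (chr3:106790100-106790399, minus strand) and 195 bases before it in C1qc (chr4:136892865-136893164, minus strand). A match of letters is no evidence of binding.
Ctss: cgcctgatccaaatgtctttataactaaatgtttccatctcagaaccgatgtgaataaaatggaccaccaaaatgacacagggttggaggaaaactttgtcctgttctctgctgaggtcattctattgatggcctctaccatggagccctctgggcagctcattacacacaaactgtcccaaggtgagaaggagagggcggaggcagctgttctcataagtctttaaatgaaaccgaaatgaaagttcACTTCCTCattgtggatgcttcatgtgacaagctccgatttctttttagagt
Cd53: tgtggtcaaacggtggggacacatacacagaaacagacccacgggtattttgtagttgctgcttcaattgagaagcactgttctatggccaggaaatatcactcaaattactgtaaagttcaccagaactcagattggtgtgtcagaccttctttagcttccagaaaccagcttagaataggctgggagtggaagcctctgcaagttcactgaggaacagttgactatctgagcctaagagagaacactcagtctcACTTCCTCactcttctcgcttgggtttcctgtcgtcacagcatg
C1qc: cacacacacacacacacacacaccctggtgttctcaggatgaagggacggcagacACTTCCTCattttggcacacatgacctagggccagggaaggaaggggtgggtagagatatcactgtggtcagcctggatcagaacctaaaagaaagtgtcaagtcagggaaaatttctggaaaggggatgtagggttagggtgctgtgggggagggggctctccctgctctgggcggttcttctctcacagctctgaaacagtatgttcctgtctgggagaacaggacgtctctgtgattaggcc

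The level of each gene was read as TPM, a transcript abundance scaled for gene length so that every library has the same total. Depth cannot be recovered from TPM, so the reads behind a value are unknown and a gene listed at 0 cannot be given a limit. Libraries had 12178 to 20526 genes above 0 TPM (median 18024 in WT and 14374 in KO), and the share of mitochondrially encoded transcripts ran from 1.27% to 23.01%. Pecam1 ran from 95.04 to 1960 TPM, with a median of 1235 TPM. Shb, the targeted gene, stood at 17.3, 31.8 and 74.3 TPM (lowest, median and highest) in WT and at 6.00, 13.7 and 52.7 TPM in KO, so the genotypes overlapped. A pair of columns carried the same name, KO replicate 3 of experiment 2. They are called 3a and 3b here. Column 3b stands beside the columns of experiment 4 and is written with as many decimals as those. The columns of experiments 1 to 3, with 3a, have fewer decimals. The sample labels list a KO replicate 3 in experiment 2 and another in experiment 4, and no column is named for the latter. Column 3b may thus belong to experiment 4, and values by experiment keep it in experiment 2, as named.

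Together the 33 transcripts were a small part of the RNA. Their summed level was 297, 739 and 12148 TPM (lowest, median and highest) in WT and 248, 322 and 757 TPM in KO, with a median of 0.0355% of a library over all 21. The highest WT library, replicate 2 of experiment 3, stood far above the rest at 1.21% of its total. Without it the WT sums reached 1853 TPM with a median of 627 TPM (n = 10). In that library every one of the 33 genes had its highest value of all 21 libraries, whereas this library was highest for 1396 of the 13503 genes tested (10.3%). The ratio to the next highest library ran from 1.43 for Cd14 to 11.3 for Lyz2, with a median of 5.47. WT replicate 2 of experiment 4, the library with the lowest Pecam1, was the next highest for 24 of the 33 genes.

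**Figure D1:**
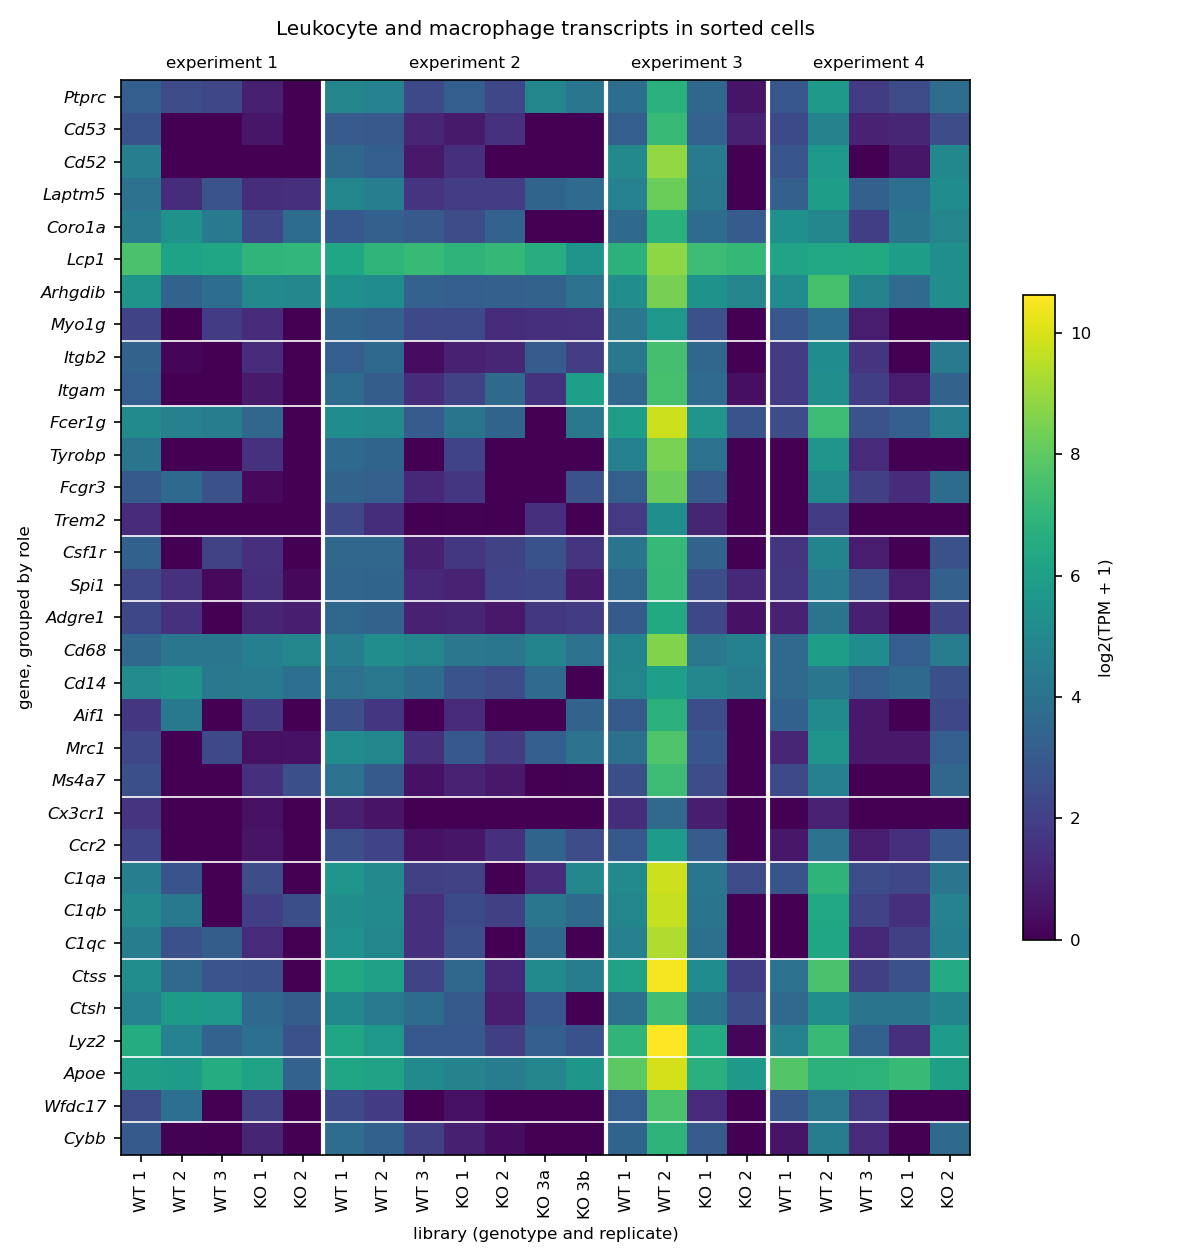
Level of the 33 transcripts as log2(TPM + 1) in each of 21 libraries, with genes in rows grouped by role and libraries in columns by experiment, WT before KO. WT replicate 2 of experiment 3 is the brightest column in all 33 rows, and Lcp1, Cd68 and Apoe are above 0 TPM in every library.

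The low end of the range was uneven. Of the 33 genes, 27 were listed at 0 in at least 1 library, and Lcp1, Arhgdib, Spi1, Cd68, Lyz2 and Apoe were above 0 in all 21. The number of genes listed at 0 per library had a median of 0 in WT (range 0 to 15) and of 10 in KO (range 0 to 19). The 8 libraries with at least 9 of the genes at 0, of which 6 were KO, had 12178 to 14933 genes above 0 TPM in the whole table, and the other 13 had 12747 to 20526. The number of detected genes thus moved with these zeros, and its part in them was not tested.

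The genes of leukocyte surface and cytoskeleton were led by Lcp1, which encodes the actin-bundling protein L-plastin. Lcp1 stood at 69.8, 87.6 and 449 TPM in WT and at 38.6, 121 and 154 TPM in KO, and it alone among the 8 genes of this group had a higher median in KO. Ptprc stood at 2.68, 8.14 and 109 TPM in WT and at 0, 6.21 and 28.7 TPM in KO. Ptprc was under 1 TPM in 3 libraries, all of them KO, and Lcp1 stood at 123 to 133 TPM in these same 3. Arhgdib stood there at 27.4 to 31.1 TPM, so neither gene was low where Ptprc was close to absent. The other 5 were Cd53, a tetraspanin, Cd52, a small surface glycoprotein, Laptm5, a lysosomal membrane protein, Coro1a, an actin regulator, and Myo1g, a leukocyte myosin. Their medians over all libraries ran from 0.67 TPM for Cd52 to 11.9 TPM for Coro1a. Exons of Cd52, Coro1a, Lcp1 and Arhgdib overlap genes of the opposite strand in the annotation, and the strand setting of the counting is not given in the sources used here.

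The integrin genes encode the chains of Mac-1, αM (Itgam) and β2 (Itgb2). Itgam stood at 0, 7.80 and 184 TPM in WT and at 0, 2.51 and 62.4 TPM in KO. The KO maximum of Itgam was in replicate 3b of experiment 2, and it exceeded every WT library but 1. In that replicate 11 of the 33 genes were listed at 0, among them Cd53, Cd52 and Tyrobp. Others were not low there: C1qa (28.5 TPM) and Mrc1 (15.5 TPM) were at their KO maxima, and Ptprc stood at 16.8 TPM. An exon of Itgam overlaps Gm49368 on the same strand, so the Itgam values are uncertain. Itgb2 reached 179 TPM in WT and 19.0 TPM in KO.

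Among Fc receptors and their signalling adaptors, Fcer1g, the common Fc receptor γ chain, was the most abundant. Fcer1g stood at 4.75, 32.2 and 908 TPM in WT and at 0, 10.0 and 45.2 TPM in KO. Tyrobp (DAP12), the adaptor of TREM2, was listed at 0 in 11 of 21 libraries, and Fcgr3, a low-affinity Fcγ receptor, in 5. Trem2, a lipid-sensing receptor of macrophages, stood at 0, 1.39 and 38.1 TPM in WT and at 0, 0 and 1.68 TPM in KO. Trem2 and Cx3cr1 did not reach 1 TPM in 10 libraries and were left out of the tests, so 31 of the 33 genes were tested.

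Csf1r, the receptor that macrophages need for survival, stood at 0, 8.85 and 137 TPM in WT and at 0, 2.21 and 9.31 TPM in KO. Its highest KO value was close to the WT median, and both genotypes had libraries listed at 0. Spi1 had medians of 5.67 TPM in WT and 1.48 TPM in KO. Adgre1, which encodes the macrophage marker F4/80, stood at 0, 3.91 and 86.4 TPM in WT and at 0, 1.15 and 3.89 TPM in KO. Thus Csf1r and Adgre1, at overall medians of 3.24 and 1.85 TPM, were present in most libraries at levels far under that of Pecam1.

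Cd68, a lysosomal glycoprotein of macrophages, was the most abundant of the surface and scavenging genes. It stood at 11.0, 26.3 and 392 TPM in WT and at 7.95, 19.3 and 29.5 TPM in KO, and it stood at 22.7 to 29.5 TPM in the 3 libraries with Ptprc under 1 TPM. Cd14, the lipopolysaccharide co-receptor, stood at 13.8 to 21.95 TPM in the same 3 libraries. Mrc1 (CD206, a mannose receptor), Aif1 (IBA1, an actin-binding protein) and Ms4a7 (a tetraspan membrane protein) had overall medians of 4.12, 2.22 and 1.66 TPM. Mrc1 was the other gene of the 33 with a higher median in KO (4.32 TPM against 4.12 TPM in WT).

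The chemokine receptor Ccr2, which guides monocytes out of the bone marrow, stood at 0, 3.44 and 57.4 TPM in WT and at 0, 1.72 and 9.69 TPM in KO. Cx3cr1, the fractalkine receptor, was listed at 0 in 13 libraries and reached 11.8 TPM. The 3 C1q chains are neighbours on the minus strand of chromosome 4, from 136880129 to 136898803 (GRCm38). C1qa stood at 0, 22.3 and 909 TPM in WT and at 0, 4.15 and 28.5 TPM in KO. C1qb and C1qc had WT medians of 28.6 and 21.6 TPM and KO medians of 4.59 and 2.23 TPM, close to those of C1qa. The 3 chains made up 19.7% of the summed level of all 33 genes in WT replicate 2 of experiment 3, and for the same replicate of experiment 4 this share was 15.0%.

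Among lysosomal enzymes, Lyz2, lysozyme of macrophages and neutrophils, had the highest mean. Lyz2 stood at 6.55, 49.7 and 1572 TPM in WT and at 0.12, 5.96 and 91.9 TPM in KO. Its near-identical copy Lyz1 reached 9.51 TPM, in the library where Lyz2 was highest. Ctss, the cathepsin that processes the invariant chain, stood at 3.00, 36.8 and 1437 TPM in WT and at 0, 8.11 and 92.4 TPM in KO. Ctsh, another cathepsin, had medians of 24.8 TPM in WT and 7.49 TPM in KO. In all 3 the WT median was over 3 times the KO median, and the ranges overlapped.

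Apoe, the lipid carrier apolipoprotein E, stood at 33, 94.4 and 970 TPM in WT and at 9.14, 49.1 and 141 TPM in KO. Together Lcp1 and Apoe made up between 10.5% (WT replicate 2 of experiment 4) and 64.3% (KO replicate 1 of experiment 4) of the summed level of the 33 genes, with a median of 38.0%. The summed level was thus weighted towards these genes in most libraries. Wfdc17, a secreted WAP-domain protein, was listed at 0 in 9 libraries and reached 190 TPM. Cybb, the catalytic subunit of the phagocyte NADPH oxidase, stood at 0, 6.94 and 118 TPM in WT and at 0, 0.14 and 11.7 TPM in KO.

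Whether these transcripts vary together was examined by the slope of each gene on Ptprc, a measure the choice of the genes did not rest on directly. The slope was fitted on log2(TPM + 1) with experiment and genotype as terms, in limma over 13502 genes with Benjamini-Hochberg adjustment over all of them. Of the 30 genes tested beside Ptprc, 25 rose with it at an adjusted p under 0.05 and none fell. Of all genes, 2.27% rose and 15.8% fell. The median slope was 0.88 log2 units per log2 unit of Ptprc over the 30 genes and -0.14 over all genes. Since the libraries share tumours, these p-values in part measure spread within a tumour.

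Ctss rose most steeply, by 1.46 log2 units per log2 unit of Ptprc (SE 0.12, adjusted p = 1.55e-07 in limma). C1qb and C1qc followed, each with a slope of 1.39 (SE 0.21 and 0.19). Lyz2 had a slope of 1.20 (SE 0.17), Cd52 of 1.16 (SE 0.22), Mrc1 of 1.12 (SE 0.15), Itgb2 of 1.11 (SE 0.16) and C1qa of 1.09 (SE 0.20). These 8 steepest genes include all 3 C1q chains and 2 of the 3 lysosomal enzymes. Csf1r (0.96, SE 0.15), Ccr2 (0.93, SE 0.12), Adgre1 (0.78, SE 0.14) and Spi1 (0.66, SE 0.16) also rose.

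The 5 genes that did not pass were Ctsh (0.45, adjusted p = 0.0573 in limma), Cd68 (0.29, adjusted p = 0.179), Coro1a (0.20, adjusted p = 0.488), Cd14 (0.09, adjusted p = 0.675) and Lcp1 (0.02, adjusted p = 0.911). The 95% interval of the Lcp1 slope ran from -0.19 to 0.23 and that of Cd14 from -0.20 to 0.38. Both intervals lie below the whole interval of Ctss, 1.22 to 1.69. Apoe passed narrowly, with a slope of 0.34 (adjusted p = 0.0472 in limma), and it passed in 16 of 36 alternative settings. Lcp1, Cd68 and Cd14 passed in none of the 36.

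**Figure D2:**
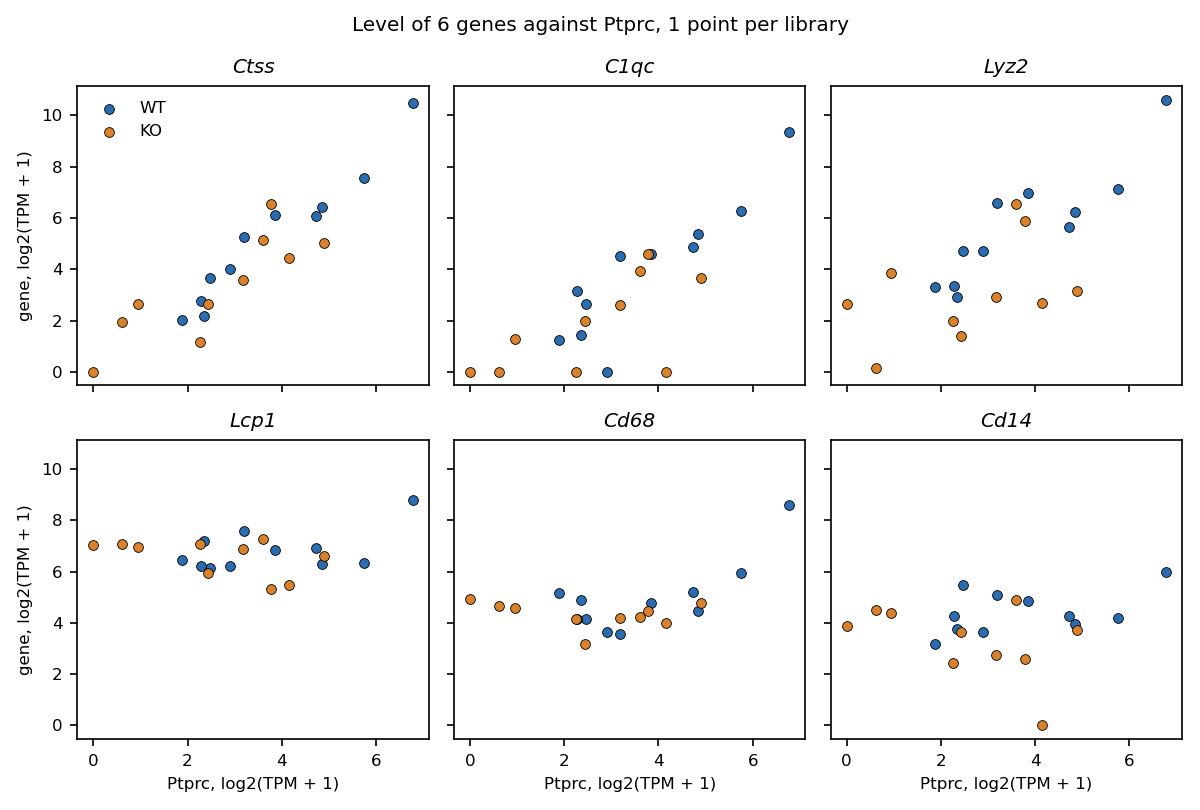
Level of 6 genes against Ptprc, both as log2(TPM + 1), with 1 point per library (WT blue, KO orange). Ctss, C1qc and Lyz2 climb with Ptprc, whereas Lcp1, Cd68 and Cd14 climb less, and Cd14 spreads from 0 to 61.9 TPM. The slopes of these last 3, fitted with experiment and genotype as terms and not drawn, were 0.02 to 0.29 log2 units per log2 unit of Ptprc.

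The count depended on the libraries and the processing. Without WT replicate 2 of experiment 3, 17 of the 30 genes rose with Ptprc past the threshold, and 1.26% of all genes did. Ctss kept a slope of 1.44, C1qc of 1.33, Lyz2 of 1.15 and Mrc1 of 1.03, and each still passed. It was 13 without experiment 3 (1.13% of all genes), 12 without experiment 4 (0.578%) and 15 with a pseudocount of 0.1 (0.837%). Without the 3 libraries lowest in Pecam1, 16 genes passed, against 0.904% of all genes. With these 3 and WT replicate 2 of experiment 3 left out together, a choice made after seeing the data, 7 passed, against 0.156% of all genes.

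**Figure D3:**
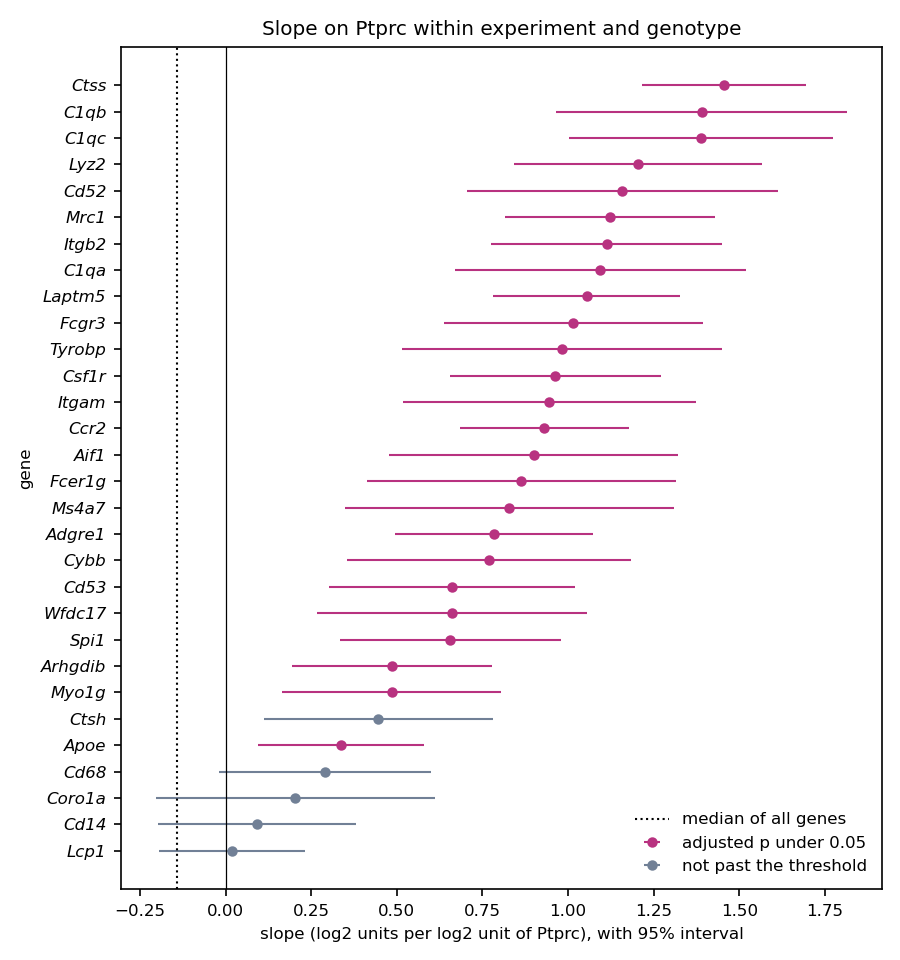
Slope of 30 genes on Ptprc within experiment and genotype, in log2 units per log2 unit, as points with 95% intervals; the dotted line is the median slope of all genes (-0.14). Coloured points passed an adjusted p under 0.05 (25 genes), and the 5 grey points did not.

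The genes outside the 33 whose level was most like that of Ptprc were chosen by partial correlation, given experiment and genotype, among genes that rose with Ptprc. The first was H2-Aa, an MHC class II chain (partial r 0.913 over 21 libraries), then Spp1, osteopontin (0.910), and Ccl12, a monocyte chemokine (0.887). They were followed by the inhibitory Fc receptor Fcgr2b (0.880), the pore-forming protein gene Mpeg1 (0.867), the galectin gene Lgals3 (0.865) and Nckap1l, a subunit of the leukocyte WAVE complex (0.858). The last 3 were Gp49a (0.856), the MHC class II chain H2-Eb1 (0.851) and Gpc1, a cell-surface proteoglycan (0.850). Of the 33 genes themselves, Ctss (0.952) and Ccr2 (0.924) exceeded all 10. In 9 of the 10 the highest value was in WT replicate 2 of experiment 3, and these values share their libraries with Ptprc, so they are given as a description.

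Other macrophage and leukocyte genes, in lists drawn up by function with earlier results of these data known, rose with Ptprc in part. Of other macrophage identity genes 10 of 18 tested rose with Ptprc, of other leukocyte signalling genes 9 of 15 (1 fell), and of other Fc receptor and ITAM genes 6 of 11. In contrast, 1 of 16 other lysosomal genes rose, the cathepsin gene Ctsc (slope 0.96, SE 0.15), although lysosomal enzymes were among the steepest of the 33. None of the other 5 oxidase genes passed (Ncf4 0.55, SE 0.20), beside Cybb, which did. Of other complement genes 3 of 9 rose, C3, C3ar1 and C4b. MHC class II genes rose in 5 of 7, with Cd74 at 0.71 (SE 0.11).

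Markers of other blood cells differed in level. The T cell genes Cd3e, Cd3d and Cd3g reached 1.51, 0.33 and 3.66 TPM and were listed at 0 in 15, 20 and 16 libraries. Lck, of the same T and NK cell list, was higher, with a median of 14.7 TPM and a maximum of 79.5 TPM. Of the 12 genes of this list, 11 were at 0 in at least 10 libraries. The B cell gene Ms4a1 reached 0.26 TPM and was listed at 0 in 18 libraries, whereas Cd79a, another B cell gene, reached 5.38 TPM and was listed at 0 in 5. The neutrophil genes S100a8 and S100a9 were at 0 in 15 and 16 libraries, and their highest values, 22.4 and 42.2 TPM, were in WT replicate 2 of experiment 3. Ly6g, another neutrophil gene, was listed at 0 in 20 libraries. The neutrophil gene Csf3r (slope 0.66, SE 0.18) and the platelet gene Pf4 (slope 1.19, SE 0.23) rose with Ptprc, each 1 of the 1 and 2 tested of their lists. Pf4 reached 385 TPM, in WT replicate 2 of experiment 3. The other platelet gene tested, Itga2b, did not rise (slope -0.18, SE 0.24) and stood at 1.42 TPM in that library. The haemoglobin gene Hba-a1 had a median of 30.3 TPM and reached 356 TPM, and the erythroid list summed to a median of 12.2 TPM in WT (highest 310) and 91.7 TPM in KO (highest 425). Of 8 monocyte genes 2 rose, Plac8 and Chil3, and Ace fell. None rose of 3 dendritic cell genes (Zbtb46 fell), 1 T and NK cell gene (Lck fell), 2 mast cell genes (both fell) and 3 erythroid genes, and no B cell gene passed the filter. Ace, Zbtb46 and the mast cell gene Kit had medians of 113, 53.1 and 107 TPM and fell, as the endothelial genes below did. Which cells these 3 transcripts came from was not tested. The RNA of a pool of cells does not show which cells a transcript came from, and fewer cells of a type cannot be told apart from less RNA per cell.

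Markers of further tissue cells moved with Ptprc as well. All 16 pan-endothelial genes fell with it, with a median slope of -0.44, among them Sox17 (-0.53, SE 0.10) and Tek (-0.54, SE 0.12). Their summed level ran from 683 to 13808 TPM in WT and from 1979 to 13270 TPM in KO. The share of all genes falling with Ptprc, 15.8%, depended on the libraries. It was 3.94% with column 3b placed in experiment 4, 5.73% without WT replicate 3 of experiment 4 and 1.84% without experiment 4. The highest share was 16.6%, without WT replicate 2 of experiment 1. How many of the 16 endothelial genes fell in these settings is not given. Of 6 fibroblast genes tested 3 rose, Pdgfra, Col1a1 and Col1a2, and the summed level of the list ran from 38.7 to 690 TPM in WT (median 84.5) and from 19.7 to 170 TPM in KO (median 38.4). The tumour epithelial keratin Krt8, alone of 6 epithelial genes in passing the filter, rose by 1.27 (SE 0.22), and 5 of the 6 were listed at 0 in at least 10 libraries. That list summed to 1.58 to 272 TPM in WT and to 0 to 140 TPM in KO. Of 5 pericyte genes none rose and Tagln fell. The part of these cells in the relation of the 33 genes with Ptprc was not tested.

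Against Pecam1, the gene of the sort marker, the leukocyte transcripts ran the other way. Fitted in the same manner, 29 of 31 genes had a slope below 0, and 14 fell with Pecam1 at an adjusted p under 0.05 in limma. None rose. Of all genes 2.56% fell and 18.2% rose. The median slope was -0.92 log2 units per log2 unit of Pecam1 over the 31 genes and 0.19 over all genes. The steepest was C1qc (-1.58, SE 0.42, adjusted p = 0.00948 in limma), with Mrc1 at -1.25 (SE 0.33, adjusted p = 0.00827). Adgre1 (-0.92, SE 0.26) and Ptprc (-0.94, SE 0.27) also fell, and Lcp1 (0.10, SE 0.15) and Apoe (0.01, SE 0.21) were the pair with slopes above 0.

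These calls depended on the libraries and the processing. Without the 3 libraries lowest in Pecam1 (461, 242 and 95.04 TPM), 0 of the 31 genes passed in limma, with 4 at an unadjusted p under 0.05, and 0.0815% of all genes fell with Pecam1. For WT replicate 1 of experiment 2 the 33 genes summed to 820 TPM. In the other two, both of experiment 4, they summed to 639 TPM (KO replicate 2) and 1853 TPM (WT replicate 2). All 3 sums exceeded the median of 355 TPM over 21 libraries, and the median in WT was 739 TPM. The 3 libraries highest in Pecam1 exceeded 355 TPM as well. WT replicate 1 of experiment 1 (Pecam1 at 1960 TPM) summed to 769 TPM. In experiment 3, KO replicate 1 (1772 TPM) summed to 757 TPM and WT replicate 1 (1764 TPM) to 1060 TPM. The next in Pecam1, KO replicate 2 of experiment 1 (1691 TPM), summed to 250 TPM. The library with the highest sum, WT replicate 2 of experiment 3, had Pecam1 at 856 TPM. Without experiment 4, 0 of the 31 passed in limma, with 2 at an unadjusted p under 0.05, and 0.156% of all genes fell. The count was 4 with a pseudocount of 0.1 (1.58% of all genes fell), 6 with libraries scaled to a common median (4.18%) and 6 with no filter on low values (4.06%). Leaving out WT replicate 3 of experiment 4 alone, where Pecam1 stood at 1218 TPM, gave 4 (2.11%), and leaving out KO replicate 2 of that experiment gave 5 (2.21%). It was 3 without experiment 2 (1.77%).

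Apoe, Cd14 and Cd53 differed in level between the 4 experiments. Given genotype, these 3 of 31 genes passed in limma's F test, while 29.1% of all genes did. The adjusted p in limma was 0.00789 for Apoe, 0.0151 for Cd14 and 0.0389 for Cd53. For Apoe the median level was 65.0 TPM in experiment 1, 33 TPM in experiment 2, 177 TPM in experiment 3 and 114 TPM in experiment 4. For Cd14 it was 19.8, 12.1, 28.5 and 11.4 TPM in the same order, and for Cd53 it was 0, 1.23, 8.56 and 4.17 TPM. All 3 were highest in experiment 3, but so were most of the 33 genes by their medians, among them Lyz2 (108 TPM) and Ctss (52.0 TPM). The exceptions were Ptprc (highest in experiment 2), Coro1a (experiment 4) and Ctsh (experiment 1). The count ranged from 2 to 15 when 1 library was left out, with 15 without KO replicate 2 of experiment 3 (26.3% of all genes) and 6 without WT replicate 1 of experiment 3 (25.4%). In experiment 4 it was 5 and 6 without WT replicates 2 and 3 in turn (22.5% and 37.1%). Without experiment 2 it was 0 in limma, with 10 at an unadjusted p under 0.05, and 0.0592% of all genes passed. It was 1 without experiment 3 (26.4%).

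The difference between genotypes is given as a description, because the genes were chosen with it known. On the log2(TPM + 1) scale, with experiment as a term, KO minus WT was below 0 for 31 of 31 genes, as it was for 64% of all genes. The median was -1.48 over the 31 genes and -0.11 over all genes. It ran from -2.53 for Lyz2 (SE 0.84) to -0.31 for Lcp1 (SE 0.27). Wfdc17 (-2.31, SE 0.60), C1qc (-2.23, SE 0.90), Tyrobp (-2.19, SE 0.78) and Fcer1g (-2.01, SE 0.74) stood near Lyz2. Ccr2 (-0.51, SE 0.58), Cd68 (-0.71, SE 0.41) and Arhgdib (-0.87, SE 0.44) stood near Lcp1.

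In TPM the WT median was above the KO median for 31 of the 33 genes, and for none did the ranges of the genotypes separate. Leaving out WT replicate 2 of experiment 3 moved the Lyz2 difference to -2.07, that of Fcer1g to -1.62 and that of C1qc to -1.70, and the median over the tested genes to -1.06. In all, 8 genes moved by more than 1.5 times: C1qb from -1.45 to -0.84, Ms4a7 from -1.27 to -0.78, Trem2 from -1.11 to -0.74, Cx3cr1 from -0.73 to -0.47, Itgam from -0.88 to -0.42, Cd68 from -0.71 to -0.33, Ccr2 from -0.51 to -0.14 and Lcp1 from -0.31 to -0.15. Fewer detected genes, lower fibroblast sums and more zeros stood on the KO side as given above. The pericyte list had all 5 tested genes below 0 in KO minus WT (median -1.04), with median sums of 74.5 TPM in WT and 33.6 TPM in KO. The MHC class II list had 7 of 7 below 0 (median -1.47), and the erythroid sums given above were higher in KO by their medians. The part of these in the difference was not tested.

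Experiment by experiment, the difference was widest in experiment 3. There it was below 0 for all 33 genes, with a median of -3.62, a lowest value of -5.44 for Lyz2 and a highest of -0.65 for Lcp1. Without WT replicate 2 that experiment has 1 WT library, and the median against it was -1.74, with 32 of 33 genes below 0. The KO libraries of experiment 3 were unlike each other. Replicate 1 had 0 of the 33 genes at 0 and summed to 757 TPM, and replicate 2 had 17 at 0 and summed to 286 TPM. The sum was 1060 TPM in WT replicate 1. In experiment 1 the difference was below 0 for 29 of 33 genes (median -0.83), with Ms4a7 at 1.13. In experiment 2 it was below 0 for 31 (median -1.26), with Itgam at 0.56, and in experiment 4 for 25 (median -0.57), with C1qc at 0.79. Itgam stood at 62.4 TPM in column 3b and at 1.91 to 11.7 TPM in the other KO libraries of experiment 2. In the WT libraries of experiment 2 it stood at 1.53 to 12.6 TPM. The values of experiments 2 and 4 depend on where column 3b is placed. A test of whether the genotype difference depends on the experiment called 0 of 31 genes in limma and 0% of all genes. At an unadjusted p under 0.05 it held 0 of the 31 and 518 of 13503 genes, and the lowest adjusted p among the 31 was 0.9996.

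**Figure D4:**
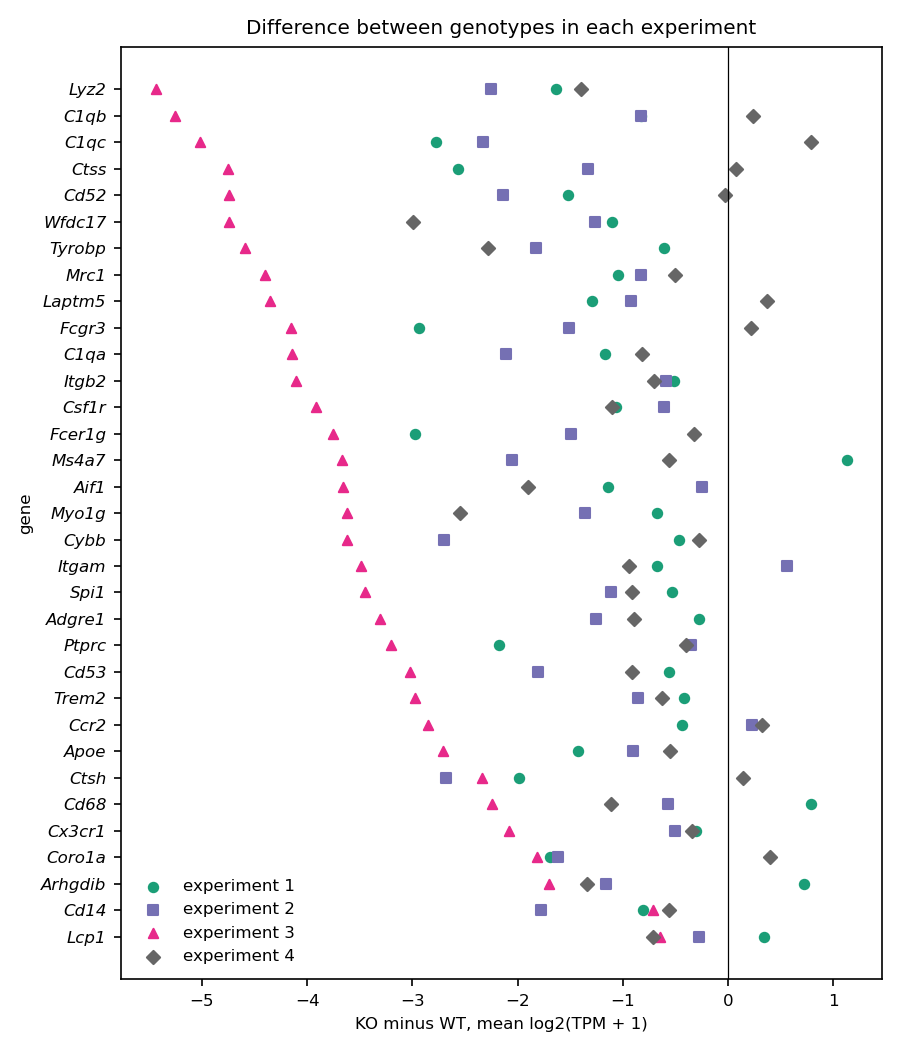
KO minus WT of mean log2(TPM + 1) for 33 genes in each of the 4 experiments, 1 symbol per experiment, with no error shown since an experiment has 2 to 4 libraries per genotype. Experiment 3 lies furthest to the left for most genes (-5.44 for Lyz2), and experiment 4 lies above 0 for 8 of the 33. Column 3b is counted in experiment 2.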

How the data were processed

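Total RNA of sorted cells was sequenced in 21 libraries, prepared from 30 ng with a stranded kit and ribosomal RNA depletion and read from both ends over 150 bases, according to the labels' protocols. The authors deposited 1 table of TPM with decimal commas, which were read as decimal points. Column totals lay between 999999.2 and 1000000.6. Per the submitters' processing notes, GRCm38 was the build. The sources used here name no aligner or counter. Gene names in the form of dates (27) were restored by identifier.

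The 13503 genes that reached 1 TPM in 10 or more libraries were fitted as log2(TPM + 1) with limma 3.58.1 (statmod 1.5.0, R 4.3.3), with a trended, robust variance prior. Terms were experiment and genotype, plus Ptprc or Pecam1 for slopes. Adjusted p-values are Benjamini-Hochberg over all genes tested. Each fit was tested on simulated data. Fold changes on this scale understate the change of low genes, and depth is unknown.

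Genotype and experiment came from column names. The 2 columns of the same name entered as KO libraries of experiment 2, and none names KO replicate 3 of experiment 4.

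The 33 genes and the 19 further lists (241 of 243 genes found) were chosen with earlier results of these data known. Named in full are the gene of highest mean TPM in each role group and Ptprc, Lyz2, Csf1r, Adgre1, Itgam and Trem2. Outside the 33, the text names Shb, Pecam1, the 10 genes most like Ptprc and up to 3 genes per list by smallest p. Values of Ctss and Lyz1, and the T, B and neutrophil markers, were chosen after seeing the data. Replicate numbers were not taken to pair the samples. Alternatives covered the pseudocount, filter, scaling, variance prior, block, covariate, column placement and leaving out libraries or experiments.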

Additional observations from a re-analysis of the deposited data

Results flagged for a closer look

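In the 10 KO libraries, a lowest or highest value stood apart from the other 9 by Dixon's ratio on the log2(TPM + 1) scale, past its 95% critical value, for 3 of the 33 transcripts and for Pecam1. Of 36 genes looked at in this way, chance flags about 1 in 20. Cd68 was lowest at 7.95 TPM in KO replicate 1 of experiment 4, against 15.0 TPM in the next library. Cd14 was listed at 0 in KO replicate 3b of experiment 2, against 4.41 TPM in the next, in the column whose experiment is uncertain. Cx3cr1 was highest at 0.86 TPM in KO replicate 1 of experiment 3, against 0.38 TPM in the next. Pecam1 was lowest at 242 TPM in KO replicate 2 of experiment 4, against 710 TPM in the next, and the summed level of the 33 transcripts in that library was 639 TPM.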

How the results depend on the processing

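The median KO minus WT difference of the tested transcripts was below 0 in all 36 alternatives, from -1.92 to -0.96 (leaving out 1 library, -1.79 to -1.06). The test for a genotype difference that depends on the experiment called 0 in all 36. The number of transcripts rising with Ptprc, 25, stayed within 1.5 times in 33 of 39 alternatives. It was 15 with a pseudocount of 0.1, 10 with a replicate block, 13 without experiment 3, 12 without experiment 4, 16 without the 3 libraries lowest in Pecam1 and 7 without these and WT replicate 2 of experiment 3. Leaving out 1 library gave 17 (without WT replicate 2 of experiment 3) to 26. With Cd53, Laptm5 or Tyrobp in place of Ptprc it was 23, 22 and 22. The number falling with Pecam1, 14, was within 1.5 times in 23 of 37. It was 4 with a pseudocount of 0.1, 6 with no filter, 6 with libraries scaled to a common median, 0 with a replicate block (5 at an unadjusted p under 0.05), 3 without experiment 2, 0 without experiment 4, 0 without the 3 libraries lowest in Pecam1 and 0 without these and WT replicate 2 of experiment 3. Leaving out 1 library gave 4 to 18: 9 without WT replicate 3 of experiment 2, 8 without WT replicate 2 of experiment 3, 9, 5, 8 and 4 without KO replicates 1 and 2 and WT replicates 1 and 3 of experiment 4. With Cdh5 in place of Pecam1 it was 10. The 3 transcripts that differed between experiments became 0 without experiment 2, 1 without experiment 3 and 1 without the 3 libraries lowest in Pecam1 and WT replicate 2 of experiment 3, and 2 to 15 leaving out 1 library. The causes were not tested, beyond fewer samples in each fit that leaves libraries out. Deviations of libraries with the same replicate number had an r over genes of -0.2 to 0.082 in experiments 1 to 3 and of 0.316 and 0.356 in experiment 4, so not every pair deviated together and the numbers were not taken as pairing. The test between experiments has no fit under the replicate block. With the block the median KO minus WT difference was -1.64, and the test for a genotype difference that depends on the experiment called 0. The depth behind the TPM is unknown, which limits every value near 0.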
